A study of Arabidopsis thaliana with 21 samples.

Results

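The 50 genes described here were low at 6 h and 12 h after cold acclimated Arabidopsis plants were returned to the warm, and lay near the cold acclimated level again at 24 h, a level that they also had in plants that had never been in the cold. They were chosen by their measured values, out of 16722 probe sets that the platform table assigns to 1 gene each (16542 genes in all). The group mean of the log2 expression value had to lie at least 1.0 below that of cold acclimated (CA) plants at both 6 h and 12 h of deacclimation, and within 0.5 of it at 24 h and in non-acclimated (NA) plants. Every array of the 6 h and 12 h groups also had to lie below every CA and NA array. Members of the CYP, UGT, GST, ABC, MYB, WRKY and NAC families, recognised by their symbol, and CHIL, GBSS1, LHY and CCA1 were left out, which removed only CHIL (AT5G05270).

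Transcripts were measured with the whole-transcript Affymetrix array for Arabidopsis (Gene 1.0 ST) in complete rosettes of the Col-0 ecotype, with 7 groups of 3 arrays. All plants were grown in soil in a greenhouse with days of 20 °C and nights of 18 °C and a light intensity of 200 μmol per square metre and second or more, for 3 weeks in 8-h days and 1 further week in 16-h days. NA plants were harvested from these conditions, CA plants after 3 days at 4 °C in 16-h days with 90 μmol of light, and deacclimated plants after 2, 4, 6, 12 or 24 h back in the greenhouse. Each array holds RNA pooled from 10 plants, and the study's methods call the 3 pools of a group independent biological replicates. Light intensity rose together with temperature at the transfer, so the 2 cannot be told apart, and neither can hour of day and hours of deacclimation over the first 12 h. The study places the return to the warm in the morning and its sampling in daytime, but no source used here gives the clock hour of harvest of each group. NA plants form a single group, so no plants kept warm throughout were measured beside each time of deacclimation. The usual daily course of a transcript in the warm is therefore not known from these arrays. In a pool of whole rosettes, fewer cells of a type and less RNA per cell cannot be told apart.

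Cold acclimation is the gain in freezing tolerance that many temperate plants make over days in the cold, and deacclimation is its loss on return to warmth. Much of the transcript response to cold is undone by warming. A transcript can also be as abundant in the cold as in plants kept warm, and lower for a time after the transfer. Among factors that couple growth to light and temperature are HY5 and its homolog HYH, bZIP factors of light-grown development, and the PIF proteins, bHLH factors that bind phytochromes and promote elongation growth.

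Of the 50 genes, 6 carry a symbol beyond their locus number: HYH (AT3G17609), PIF7 (AT5G61270), bHLH34 (AT3G23210), NDB2 (AT4G05020), AAH (AT4G20070) and ATOBGM (AT1G07620, which RefSeq also lists as TON1 recruiting motif 32). The study's supplementary annotation gives a family or a predicted function for 11 more, and the remaining 33 are named here by locus only. By annotated role, which was not tested here, there were 4 transcription factors, 4 genes of redox or respiration and 9 other annotated genes. PIF7, NDB2, AAH, AT1G64500, AT1G06830, AT1G78070 and AT1G67360 are given values of their own because they are annotated, and were picked after their values were seen. The members lie on all 5 chromosomes (13, 6, 8, 11 and 12 genes on chromosomes 1 to 5), and 0 pairs of them are next to each other in the genome.

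Deposited log2 expression values were used throughout, so that a difference of 1 is a 2-fold change, and levels of different genes are not set against each other. The values that chose the genes are given first, as a description without a test. Against CA plants the 50 members had a median change of -1.44 at 6 h (range -5.97 to -1.05), and of -1.44 at 12 h (range -5.46 to -1.01). At 24 h the median was -0.09 (range -0.47 to 0.40) and in NA plants -0.05 (range -0.49 to 0.49).

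**Figure D1:**
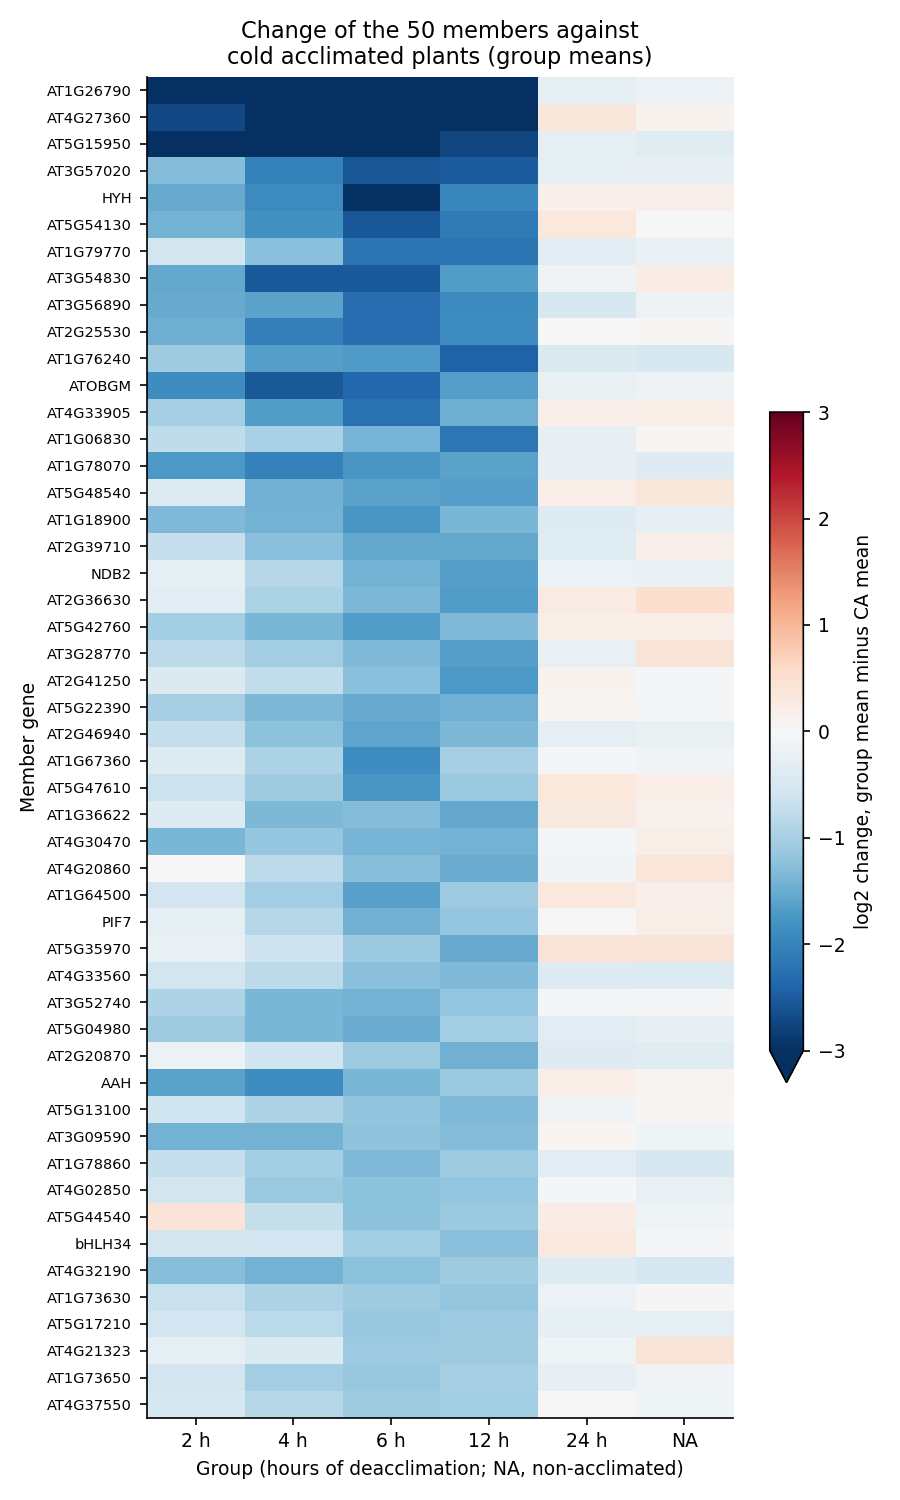
Change of the group mean against CA plants (log2, colour, blue lower and red higher, with changes below -3 drawn as -3) for the 50 members (vertical axis, ordered by their mean fall over 6 h and 12 h) in the 2, 4, 6, 12 and 24 h and NA groups (horizontal axis), each mean over 3 arrays. The median of the members lies at -0.71 at 2 h and -1.24 at 4 h, and the columns of 24 h and NA plants stay between -0.49 and 0.49.

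Some members lay close to the limits of the choice. At 6 h the member nearest the limit was bHLH34 at -1.05, and the nearest gene outside that met the other conditions was AT5G49280 at -0.98. At 12 h AT1G73650 lay inside at -1.01 and AT2G47370 outside at -0.99. At 24 h AT3G56890 lay inside at -0.47 and AT4G27657 outside at 0.51, and for NA plants AT2G36630 lay inside at 0.49 and AT5G02280 outside at -0.50. The gap between the arrays was smallest in AT1G73630, at 0.030. With each of the 15 arrays behind the choice left out in turn, the rule found 46 to 59 genes, and 28 of the 50 members were found every time. AT2G20870 and AT4G32190 were found least often, in 10 of the 15.

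The 2 h and 4 h arrays took no part in the choice, and show how early the members were low. The comparisons with CA and with NA plants share with the choice the CA and NA arrays, which had to lie high. At 2 h, 19 members were called lower than CA plants (limma, a log2 change of more than 1.0 in size with an adjusted p below 0.05), where 1.6% of all 31329 probe sets analysed were. At 4 h, 32 members were called lower, where 2.6% of all probe sets were. At both times 0 members were called higher, and 0 were higher at an unadjusted p under 0.05. Of the 32, the 19 already called at 2 h were all still called at 4 h, 13 were called at 4 h only, and 18 members were called at neither time. With the adjusted p alone, 28 members were lower at 2 h (7.02% of all probe sets) and 45 at 4 h (10.3%). All 3 arrays lay below all 3 CA arrays for 36 members at 2 h (12.9% of all probe sets) and for 47 at 4 h (20.6%).

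The median change of the members was -0.71 at 2 h (range -3.47 to 0.39) and -1.24 at 4 h (range -5.40 to -0.44), beside medians of 0.06 and 0.01 over all probe sets. Set against NA plants, whose arrays the choice had used as well, 18 members were called lower at 2 h, where 2.22% of all probe sets were, and 31 members at 4 h, where 2.88% were. Against both references 16 members were called at 2 h, where 0.377% of all probe sets were, and 27 at 4 h, where 0.728% were. The choice had held the NA mean of each member near its CA mean, which was not required of all probe sets. A member low against CA plants was thus likely to be low against NA plants too. The counts against both references are therefore no separate evidence, and the shares of all probe sets are no matched background for them. As a share of each member's own mean fall over 6 h and 12 h, the change had reached a median of 52.5% at 2 h and 81.5% at 4 h. At 4 h it was over 90% of that fall in 19 members, and its lowest share was 40.7%, in AT4G21323. The lowest of the deacclimated group means came at 6 h in 28 members, at 12 h in 16, at 4 h in 5 and at 2 h in 1 (AT3G09590).

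**Figure D2:**
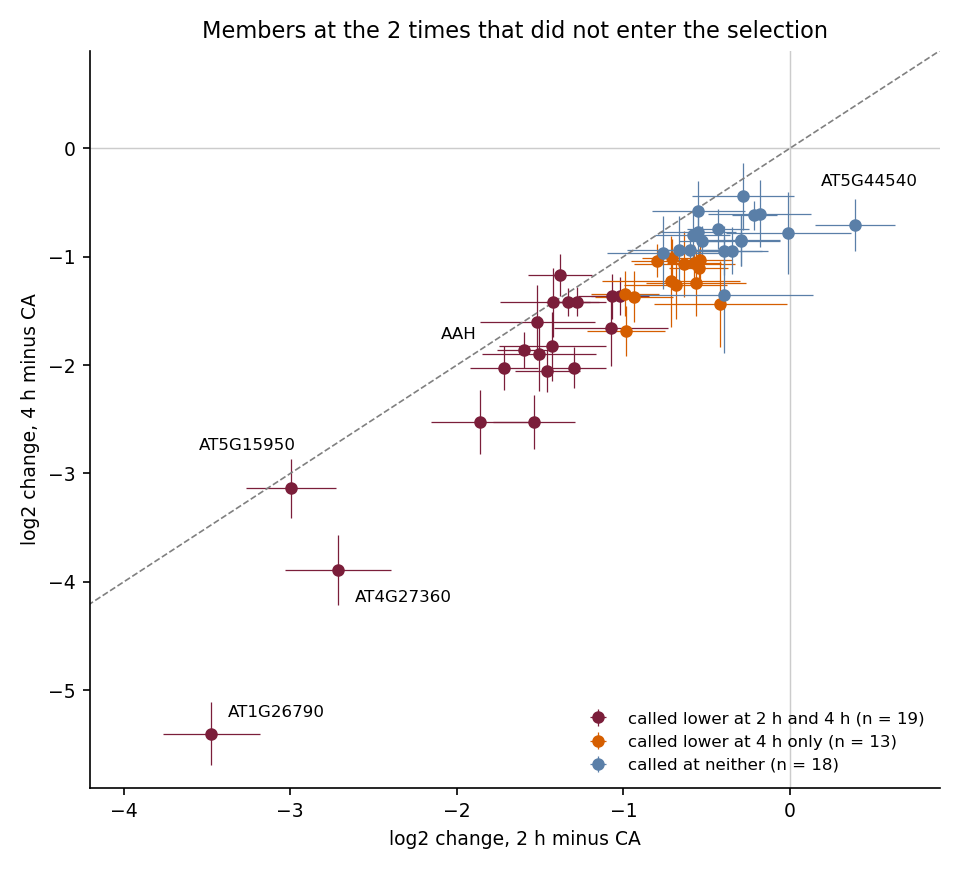
Change at 2 h (horizontal axis) against change at 4 h (vertical axis), both as log2 differences from CA plants, for the 50 members, with bars for the standard error of limma's fit and the dashed line where both are equal; both axes share the CA arrays. Of the points, 48 lie below the dashed line, and AT1G26790 lies lowest at -3.47 and -5.40.

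The step from 2 h to 4 h rests on arrays that the choice did not use at all. By their group means 48 of the 50 members were lower at 4 h than at 2 h, as were 58.9% of all probe sets, with a median difference of -0.41 beside -0.05 over all probe sets. Only 1 of them, AT1G26790, was called lower (0.0575% of all probe sets were), and 19 were lower at an unadjusted p under 0.05, where 8.57% of all probe sets were. All 4 h arrays lay below all 2 h arrays for 9 members, and for 8.2% of all probe sets. The count of called members depended on the arrays in the fit: without 2 h replicate 2 it was 4, and with only the arrays of these 2 groups in the fit it was 0. Without 2 h replicate 1, 45 members and 49.8% of all probe sets had a lower mean at 4 h, with median differences of -0.35 and 0.0009. Low values at 6 h and 12 h were required of the members only, so that all probe sets are no matched background for this step.

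Among the transcription factors, the change of AT1G26790, annotated as a Dof-type zinc finger protein, a plant-specific class of DNA-binding factors, was the largest of all members at every time from 2 h to 12 h. Values are given in the order of replicates 1, 2 and 3. The choice required the 6 h and 12 h arrays of every member to lie below its CA and NA arrays. A lack of overlap between those groups is therefore no separate evidence, here or for the genes that follow. AT1G26790 read 10.82, 10.70 and 10.83 in the cold acclimated arrays, 7.52, 7.04 and 7.36 in the 2 h group, 4.79, 4.88 and 6.48 in the 4 h group, 4.86, 4.89 and 4.67 in the 6 h group, 5.44, 5.42 and 5.10 in the 12 h group, 10.53, 10.46 and 10.53 in the 24 h group and 10.66, 10.59 and 10.59 in NA plants. The deacclimated arrays of the first 12 h lay far below the 9 others, with no overlap, and at 4 h replicate 3 stood above the other 2. Its change was -3.47 (SE 0.29, adjusted p = 1.28e-06) at 2 h and -5.40 (SE 0.29, adjusted p = 1.15e-08) at 4 h. The further fall from 2 h to 4 h was -1.93 (SE 0.29, adjusted p = 0.00584), with adjusted p from 1.41e-07 to 0.417 over the alternative settings, the highest with only the 2 groups in the fit. At 6 h the mean lay -5.97 from CA plants, a description only.

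HYH, a bZIP factor closely related to HY5 that acts in light-regulated development, fell at both early times. HYH read 11.09, 10.93 and 11.11 in the cold acclimated arrays, 9.62, 9.46 and 9.54 in the 2 h group, 9.08, 8.37 and 10.01 in the 4 h group, 9.03, 7.48 and 7.75 in the 6 h group, 9.22, 8.93 and 9.14 in the 12 h group, 11.13, 11.38 and 11.08 in the 24 h group and 11.10, 11.16 and 11.30 in NA plants. The arrays of 2 h to 12 h did not overlap with those of CA, 24 h or NA plants, but the 3 replicates of 4 h and of 6 h spread over more than 1 on the log2 scale. HYH changed by -1.51 (SE 0.34, adjusted p = 0.00553) at 2 h and by -1.89 (SE 0.34, adjusted p = 0.000722) at 4 h. It had the largest recovery between 6 h and 12 h of all members, with a mean higher by 1.01 at 12 h.

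PIF7, a phytochrome-interacting bHLH factor known for its part in the growth response to shade, was not called against CA plants at 2 h or 4 h. PIF7 read 10.23, 10.44 and 10.35 in the cold acclimated arrays, 9.92, 9.62 and 10.60 in the 2 h group, 9.59, 9.16 and 9.71 in the 4 h group, 9.14, 8.63 and 8.90 in the 6 h group, 9.02, 9.27 and 9.25 in the 12 h group, 10.16, 10.56 and 10.30 in the 24 h group and 10.07, 10.74 and 10.78 in NA plants. At 2 h its arrays overlapped with those of CA plants, replicate 3 lying above all of them, and from 4 h to 12 h they lay below. The change was -0.29 (SE 0.23, adjusted p = 0.432) at 2 h and -0.85 (SE 0.23, adjusted p = 0.0135) at 4 h, short of the 2-fold limit, and -1.04 (SE 0.23, adjusted p = 0.00481) at 4 h against NA plants, where it was called. The gene next to it, AT5G61280, lay -0.41 from CA plants at 6 h and -1.25 at 12 h.

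bHLH34, another bHLH factor, was among the weakest members. bHLH34 read 10.17, 10.20 and 9.94 in the cold acclimated arrays, 10.03, 9.52 and 9.11 in the 2 h group, 9.37, 9.18 and 10.02 in the 4 h group, 9.79, 8.78 and 8.60 in the 6 h group, 9.001, 8.82 and 8.73 in the 12 h group, 10.32, 10.36 and 10.52 in the 24 h group and 10.31, 9.92 and 9.92 in NA plants. In each of the 2 h, 4 h and 6 h groups 1 replicate stood near the CA level, a different one at 4 h than at 2 h and 6 h. Its change was -0.55 (SE 0.28, adjusted p = 0.192) at 2 h and -0.58 (SE 0.28, adjusted p = 0.159) at 4 h, with no call against either reference. Over the 4 factors the median change was -1.03 at 2 h and -1.37 at 4 h. At each time 2 of the 4 were called lower, where 1.6% and 2.6% of all probe sets were.

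Of 15 genes on a list of photoreceptors and light-response genes compiled by hand, 3 had a single-gene probe set, and HYH and AT3G52740 were members. On that list AT3G52740 carries the symbol BIC1. The platform table gives it no symbol, and it is counted with the members named by locus only. AT3G52740 read 10.65, 10.63 and 10.69 in the cold acclimated arrays, 10.12, 9.63 and 9.41 in the 2 h group, 9.30, 8.82 and 9.75 in the 4 h group, 9.82, 8.97 and 8.91 in the 6 h group, 9.62, 9.40 and 9.50 in the 12 h group, 10.59, 10.72 and 10.58 in the 24 h group and 10.70, 10.53 and 10.54 in NA plants. AT3G52740 changed by -0.94 (SE 0.23, adjusted p = 0.00954) at 2 h, just short of the 2-fold limit, and by -1.37 (SE 0.23, adjusted p = 0.000424) at 4 h. Without 2 h replicate 1, its highest array at that time, the 2 h change was -1.14 and was called (adjusted p = 0.004874). The remaining gene of the list, AT3G44450, changed by -0.96 at 2 h (adjusted p = 0.0314) and by -1.17 at 4 h (adjusted p = 0.00853), but lay -1.004 from CA plants at 24 h and -0.93 in NA plants, so that it was no member. Of the 3 genes 1 was called lower at 2 h and 3 at 4 h, where 1.6% and 2.6% of all probe sets were. The medians of the 3 genes were -0.96 and -1.37, beside 0.06 and 0.01 over all probe sets. With 2 of the 3 chosen as low against the same CA arrays, these values cannot speak for light-response genes as a set. The list was also compiled with earlier results of these data known.

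The other lists held no member. On a list of 16 CBF factors and cold-regulated genes 9 were measured, with no CBF factor among them. Of these 9, 4 were called lower at 2 h, 7 at 4 h and 8 at 24 h, where 1.6%, 2.6% and 4.37% of all probe sets were. The median of the 9 genes at 24 h was -2.29, beside 0.00433 over all probe sets. Among the 21 genes of sulfur assimilation 4 were measured, with medians of 0.04 at 2 h and 0.22 at 4 h. From the remaining lists, 2 genes each of flavonoid synthesis, chlorophyll and carotenoid synthesis and cytokinin response regulators were measured and 1 of the circadian clock, and 0 of nitrate assimilation, jasmonate and glucosinolate synthesis, so that these lists say little about the members. Over the 2 h and 4 h comparisons, 1 of the 2 response regulators was called lower at both times and the clock gene GI at 2 h only.

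**Figure D3:**
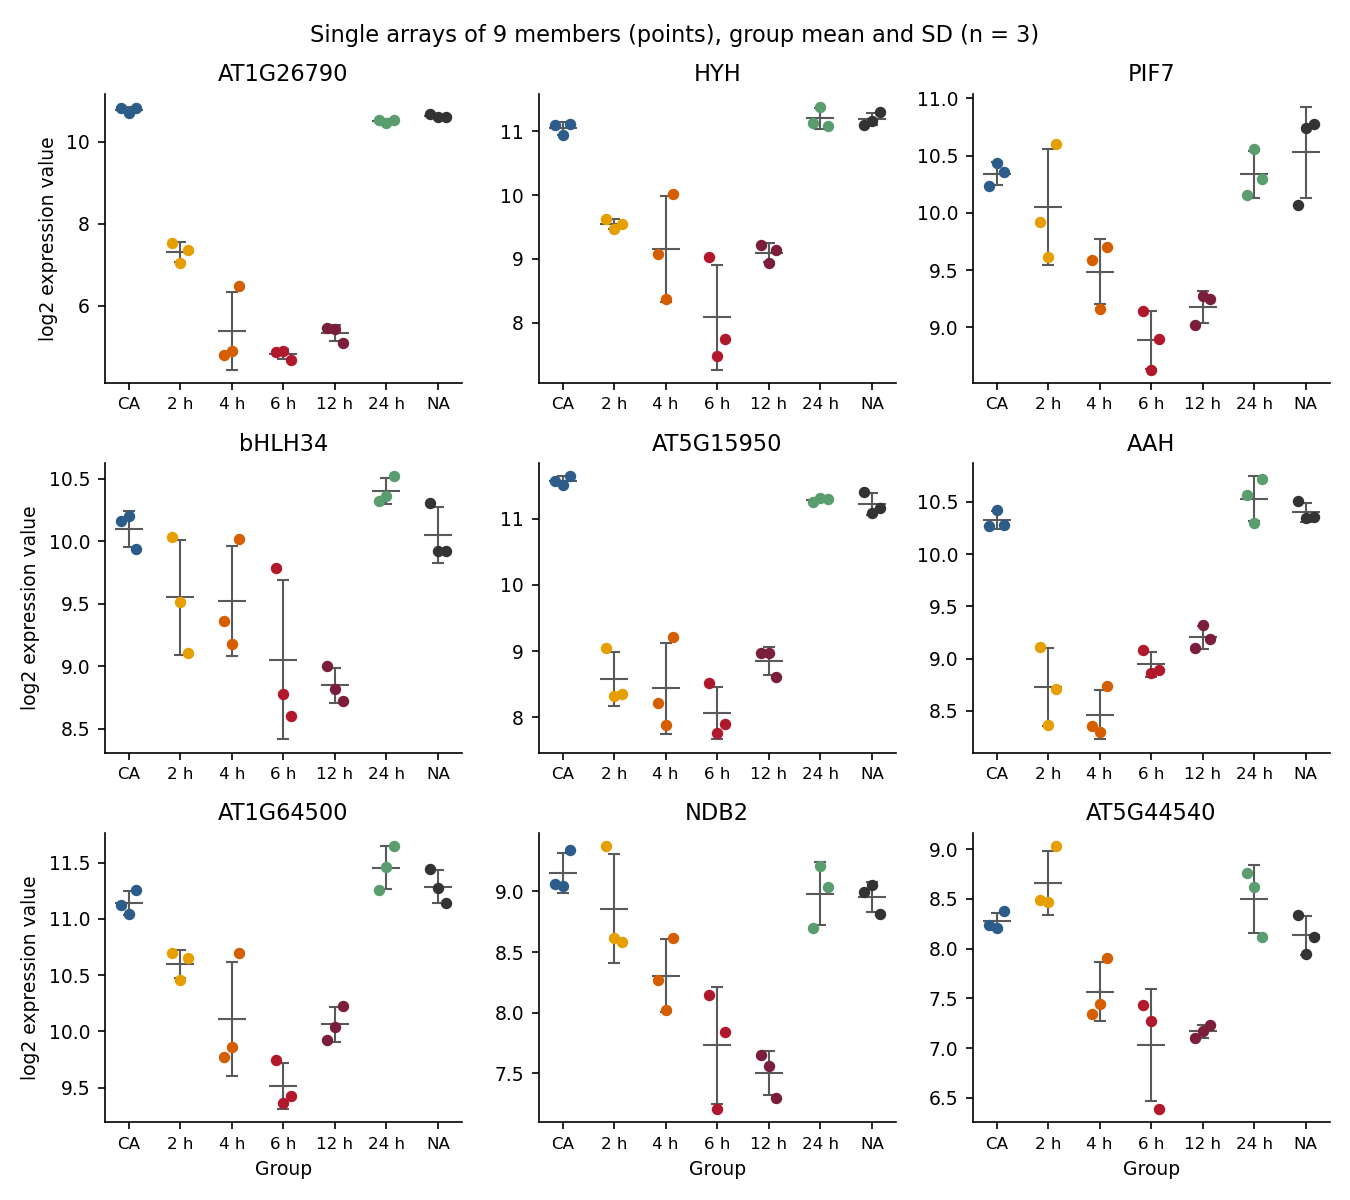
Deposited log2 expression values (vertical axis, scaled for each gene) of 9 members in single arrays (points), with the group mean (bar) and SD (n = 3), in CA plants, after 2 to 24 h of deacclimation and in NA plants (horizontal axis). AT1G26790 lies between 10.46 and 10.83 in every CA, 24 h and NA array and between 4.67 and 7.52 in every array of 2 h to 12 h, while AT5G44540 is low only from 4 h on.

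Of the 4 genes annotated to redox or respiration 0 were called lower by limma at 2 h and 2 at 4 h, where 1.6% and 2.6% of all probe sets were. At 2 h 3 of the 4 were lower at an unadjusted p under 0.05 (limma), where 12.2% of all probe sets were. The 4 genes had median changes of -0.56 at 2 h and -0.999 at 4 h. AT1G64500 and AT1G06830 are annotated as glutaredoxin family proteins, a family named after small enzymes that reduce disulfides with glutathione. Only this annotation places the 2 genes here, and whether either has that activity was not examined. AT1G64500 read 11.12, 11.05 and 11.26 in the cold acclimated arrays, 10.69, 10.46 and 10.65 in the 2 h group, 9.77, 9.86 and 10.69 in the 4 h group, 9.74, 9.36 and 9.43 in the 6 h group, 9.92, 10.04 and 10.23 in the 12 h group, 11.26, 11.46 and 11.65 in the 24 h group and 11.44, 11.28 and 11.14 in NA plants. All arrays of 2 h to 12 h lay below all CA arrays, and all 12 h arrays lay above all 6 h arrays. Its change was -0.54 (SE 0.19, adjusted p = 0.0592) at 2 h and -1.03 (SE 0.19, adjusted p = 0.000848) at 4 h. AT1G06830 read 9.57, 9.65 and 9.25 in the cold acclimated arrays, 8.29, 9.18 and 8.72 in the 2 h group, 8.47, 8.46 and 8.64 in the 4 h group, 8.09, 7.98 and 8.23 in the 6 h group, 8.51, 6.60 and 6.87 in the 12 h group, 9.12, 9.40 and 9.20 in the 24 h group and 9.43, 9.66 and 9.55 in NA plants. The lowest arrays of AT1G06830 were replicates 2 and 3 at 12 h, and the changes at 2 h and 4 h were -0.76 (SE 0.34, adjusted p = 0.132) and -0.96 (SE 0.34, adjusted p = 0.0491), so that neither was called against CA plants. The gene next to AT1G64500, AT1G64490, was also lower, by -1.09 at 6 h and -1.59 at 12 h.

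NDB2 encodes an NAD(P)H dehydrogenase of the mitochondrial inner membrane that feeds electrons into respiration without pumping protons. NDB2 read 9.06, 9.05 and 9.35 in the cold acclimated arrays, 9.37, 8.61 and 8.58 in the 2 h group, 8.27, 8.02 and 8.62 in the 4 h group, 8.15, 7.21 and 7.84 in the 6 h group, 7.65, 7.56 and 7.30 in the 12 h group, 8.70, 9.21 and 9.04 in the 24 h group and 8.997, 9.05 and 8.82 in NA plants. At 2 h its replicate 1 lay above every CA array and the other replicates below them. The change was -0.30 (SE 0.24, adjusted p = 0.437) at 2 h and -0.85 (SE 0.24, adjusted p = 0.0161) at 4 h, and the group mean was lowest at 12 h. AT1G73650, annotated as an oxidoreductase acting on CH-CH groups, had 2 h values of 10.55, 10.05 and 9.87 and 4 h values of 9.91, 9.60 and 9.53, all below the CA values of 10.84, 10.71 and 10.65. It changed by -0.58 (SE 0.16, adjusted p = 0.0187) at 2 h and -1.05 (SE 0.16, adjusted p = 0.000163) at 4 h, the latter call being lost without 4 h replicate 3, where the change was -0.98.

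AAH, allantoate amidohydrolase, which releases ammonium from a breakdown product of purines, had at 2 h and at 4 h the largest share of its later fall among the members. AAH read 10.27, 10.42 and 10.28 in the cold acclimated arrays, 9.11, 8.37 and 8.71 in the 2 h group, 8.36, 8.30 and 8.74 in the 4 h group, 9.08, 8.86 and 8.89 in the 6 h group, 9.10, 9.32 and 9.19 in the 12 h group, 10.57, 10.30 and 10.72 in the 24 h group and 10.50, 10.34 and 10.36 in NA plants. All arrays of 2 h to 12 h lay below all others, and the lowest values stood at 2 h and 4 h. The change was -1.60 (SE 0.16, adjusted p = 6.74e-06) at 2 h and -1.86 (SE 0.16, adjusted p = 9.8e-07) at 4 h, which is 128% and 149% of the mean fall over 6 h and 12 h.

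ATOBGM had a similar early low. ATOBGM read 9.33, 9.03 and 9.41 in the cold acclimated arrays, 7.88, 6.56 and 7.76 in the 2 h group, 6.57, 6.80 and 6.83 in the 4 h group, 7.03, 6.73 and 6.94 in the 6 h group, 7.30, 7.33 and 8.21 in the 12 h group, 8.79, 9.14 and 9.18 in the 24 h group and 8.76, 9.19 and 9.37 in NA plants. Its arrays of 2 h to 12 h did not overlap with the others, and 2 h replicate 2 was as low as the 4 h arrays. ATOBGM changed by -1.86 (SE 0.29, adjusted p = 0.000328) at 2 h and by -2.52 (SE 0.29, adjusted p = 1.37e-05) at 4 h. AT1G78070, a WD-40 repeat protein of a fold that commonly serves as a scaffold for other proteins, changed by -1.72 (SE 0.20, adjusted p = 2.68e-05) and -2.03 (SE 0.20, adjusted p = 3.37e-06) at the same times, and its mean was lowest at 4 h.

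AT1G18900, annotated as a pentatricopeptide repeat protein, a class that binds RNA in organelles, had the smallest standard error of the annotated members. Its values were 9.63, 9.62 and 9.81 in CA plants, 8.48, 8.26 and 8.32 in the 2 h group, 8.40, 8.34 and 8.08 in the 4 h group and 9.13, 9.44 and 9.32 in the 24 h group. It was already low at 2 h, by -1.33 (SE 0.13, adjusted p = 5.19e-06), and the difference of 4 h from 2 h was -0.08 (SE 0.13, adjusted p = 0.843). AT2G25530, an AFG1-like ATPase, changed by -1.46 (SE 0.19, adjusted p = 8.01e-05) at 2 h and by -2.06 (SE 0.19, adjusted p = 2.05e-06) at 4 h.

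Other annotated members were not called at 2 h. AT1G79770, with a domain of unknown function (DUF1677), changed by -0.56 (SE 0.30, adjusted p = 0.217) at 2 h and -1.25 (SE 0.30, adjusted p = 0.00607) at 4 h, and without 4 h replicate 2 the latter was -0.89 and no longer called. Its 6 h values were 6.45, 6.02 and 6.18 against 8.55, 8.37 and 8.37 in CA plants, a separation that the choice itself required. AT1G67360, of the rubber elongation factor family, and AT1G73630, a putative calcium-binding protein, changed by -0.94 and -0.94 at 4 h, each with an adjusted p under 0.05 (0.00617 and 0.0393) but short of the 2-fold limit. Without 4 h replicate 3 the change of AT1G73630 was -1.18 and it was called. AT2G20870, a putative precursor of a cell wall protein, differed little, with 4 h values of 6.81, 6.78 and 6.63 against 7.07, 7.37 and 7.59 in CA plants and a change of -0.60 (SE 0.31, adjusted p = 0.194).

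Among the members named here by locus only, 12 of 33 were called lower at 2 h and 22 at 4 h. Of all probe sets 1.6% and 2.6% were called lower at these times. The median changes of the 33 were -0.71 and -1.26. AT4G27360 read 7.99, 7.49 and 7.77 in the cold acclimated arrays, 5.16, 4.34 and 5.62 in the 2 h group, 3.55, 3.52 and 4.52 in the 4 h group, 3.60, 3.24 and 3.42 in the 6 h group, 3.73, 4.55 and 3.81 in the 12 h group, 7.64, 8.46 and 8.15 in the 24 h group and 7.73, 7.91 and 7.95 in NA plants. The 4 h arrays of AT4G27360 were at or near the 6 h level, apart from replicate 3, and it changed by -2.71 (SE 0.32, adjusted p = 2.7e-05) at 2 h and by -3.89 (SE 0.32, adjusted p = 5.93e-07) at 4 h. Whether the low end of the array's scale limited these low readings, or those of AT1G26790 and of other members with low readings, was not tested. Among those other members are AT3G56890, at 4.55 to 5.06 in the 2 h group, and AT3G09590, at 4.66 to 5.07. AT5G15950 read 11.57, 11.51 and 11.64 in the cold acclimated arrays, 9.04, 8.33 and 8.36 in the 2 h group, 8.22, 7.88 and 9.21 in the 4 h group, 8.52, 7.77 and 7.91 in the 6 h group, 8.97, 8.97 and 8.61 in the 12 h group, 11.25, 11.31 and 11.29 in the 24 h group and 11.40, 11.09 and 11.17 in NA plants. AT5G15950 was near its lowest level by 2 h, with a change of -2.997 (SE 0.27, adjusted p = 2.37e-06), and the step from 2 h to 4 h was -0.14 (SE 0.27, adjusted p = 0.876).

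AT3G57020, AT3G54830 and AT5G54130 were called lower at both early times. AT3G57020 read 10.54, 10.52 and 10.54 in the cold acclimated arrays, 9.56, 9.32 and 8.84 in the 2 h group, 8.49, 8.41 and 8.63 in the 4 h group, 8.30, 7.61 and 8.000 in the 6 h group, 7.74, 8.18 and 8.23 in the 12 h group, 10.22, 10.51 and 10.02 in the 24 h group and 10.35, 10.21 and 10.31 in NA plants. Its arrays went down in steps to 6 h with no overlap with CA plants, with changes of -1.30 (SE 0.19, adjusted p = 0.00019) at 2 h and -2.02 (SE 0.19, adjusted p = 2.05e-06) at 4 h. In AT3G54830 the 4 h values of 8.72, 8.42 and 8.80 were as low as the 6 h values of 8.48, 8.38 and 9.08, against 10.83, 11.39 and 11.29 in CA plants. Its change of -2.52 (SE 0.24, adjusted p = 2.64e-06) at 4 h followed one of -1.53 (SE 0.24, adjusted p = 0.000369) at 2 h. AT5G54130 changed by -1.43 (SE 0.32, adjusted p = 0.00506) at 2 h and -1.83 (SE 0.32, adjusted p = 0.000551) at 4 h, with 4 h replicate 3 at 10.95 standing well above replicates 1 and 2 at 9.46 and 9.52.

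AT3G56890, AT4G30470 and AT3G09590 were also called at both early times. AT3G56890 changed by -1.52 at 2 h and -1.61 at 4 h, AT4G30470 by -1.38 and -1.17, and AT3G09590 by -1.42 and -1.42, with adjusted p between 0.000111 and 0.00542. AT3G09590 and AT4G30470 were the 2 members whose mean was not lower at 4 h than at 2 h. AT1G76240 was called at 2 h as well, by -1.07 (SE 0.34, adjusted p = 0.0379), but leaving out any 1 of the 6 arrays compared ended that call (adjusted p from 0.05479 to 0.1232), while its 4 h change of -1.66 (SE 0.34, adjusted p = 0.00206) stood. AT5G48540 was called at 4 h only, with a change of -1.44 (SE 0.40, adjusted p = 0.0146), and without CA replicate 1 or 4 h replicate 2 its adjusted p was 0.05721 or 0.08589.

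A few members were not lower than CA plants at 2 h, or barely so. AT5G44540 read 8.23, 8.21 and 8.38 in the cold acclimated arrays, 8.49, 8.47 and 9.03 in the 2 h group, 7.35, 7.45 and 7.90 in the 4 h group, 7.44, 7.27 and 6.39 in the 6 h group, 7.10, 7.18 and 7.23 in the 12 h group, 8.76, 8.62 and 8.11 in the 24 h group and 8.33, 7.94 and 8.12 in NA plants. AT5G44540 lay higher at 2 h than in CA plants in every array, with a change of 0.39 (SE 0.24, adjusted p = 0.294) that was not called, and all its 4 h arrays lay below all its CA arrays. The step from 2 h to 4 h was -1.10 (SE 0.24, adjusted p = 0.0603). AT4G20860 stood at 9.12, 8.18 and 9.14 at 2 h and 9.001, 8.68 and 8.79 in CA plants, a change of -0.01 (SE 0.38, adjusted p = 0.989), and at 8.20, 7.56 and 8.37 at 4 h. Against NA plants AT4G20860 changed by -0.37 at 2 h and by -1.14 (SE 0.38, adjusted p = 0.0453) at 4 h, where it was called by limma. AT2G36630 changed by -0.35 (SE 0.22, adjusted p = 0.305) at 2 h and by -0.95 (SE 0.22, adjusted p = 0.0046) at 4 h, short of the 2-fold limit, which it passed without CA replicate 1 (-1.03) or 4 h replicate 3 (-1.18). Against NA plants AT2G36630 changed by -0.84 (limma, SE 0.22, adjusted p = 0.0115) at 2 h, which was not called. At 4 h the change from NA plants was -1.44 (SE 0.22, adjusted p = 0.00023) and was called. AT5G44540 was called at neither time against NA plants.

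The 19 members known by locus only that are not named above changed by a median of -0.63 at 2 h (range -1.28 to -0.21) and -1.07 at 4 h (range -1.68 to -0.44), and were read after their values were seen. Called lower at both times were 3 of them, AT4G32190, AT5G04980 and AT5G42760, with changes of -1.28 to -1.02 at 2 h. AT4G32190 stood at 10.39, 10.37 and 10.63 in CA plants and 9.23, 9.02 and 9.31 at 2 h, with no overlap. Another 8 were called at 4 h only, AT4G33905 the furthest at -1.68 (SE 0.23, adjusted p = 6.88e-05), followed by AT5G22390, AT2G39710, AT2G46940, AT4G02850, AT5G47610, AT3G28770 and AT1G78860, which changed by -1.34 to -1.02. The last 8 were called at neither time. AT5G35970, 1 of them, was lower at each later time, with values of 11.63, 11.60 and 11.64 in CA plants, 11.63, 11.29 and 11.30 in the 2 h group, 10.95, 10.999 and 11.06 in the 4 h group, 10.37, 10.65 and 10.53 in the 6 h group and 9.86, 10.43 and 10.07 in the 12 h group. Its arrays left the CA range by 4 h, where the change was -0.62 (SE 0.13, adjusted p = 0.00294), and its lowest mean came at 12 h, as did that of AT2G41250. AT1G36622 had a 4 h change of -1.35 (SE 0.53, adjusted p = 0.0814), larger than that of many called members but with replicates at 5.54, 3.74 and 5.69, of which those of replicates 1 and 3 lay close to each other and far above replicate 2. AT4G33560, AT5G13100, AT5G17210, AT4G21323 and AT4G37550 changed by -0.93 to -0.44 at 4 h.

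Between 6 h and 12 h the members went either way, as a description of arrays that chose them. The mean was lower at 6 h in 33 members and at 12 h in 17, and the difference of 12 h from 6 h ranged from -0.78 in AT1G06830 to 1.01 in HYH, with a median of 0.11. All 12 h arrays lay above all 6 h arrays in 11 members (7.62% of all probe sets) and below them in 3 (15.5%). At 24 h the members lay between -0.60 and 0.37 of NA plants, with a median of -0.01.

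Replicates of the early groups varied more in the members than over all probe sets. The median SD of a member was 0.348 at 2 h, 0.326 at 4 h and 0.331 at 6 h, beside 0.241, 0.174 and 0.172 over all probe sets, whereas in CA plants it was 0.135 beside 0.132. The members deviated together: 2 h replicate 1 lay above its group mean in 41 of the 50, 4 h replicate 3 in 39 and 6 h replicate 1 in 38, while 4 h replicate 2 lay above it in only 9. The median deviation of the members was 0.30 in 4 h replicate 3 and 0.23 in 6 h replicate 1, where that of all probe sets was 0.03 and 0.04, and 0.20 in 2 h replicate 1, where that of all probe sets was 0.12. Over the probe sets analysed, those 3 arrays also had the highest median of their groups, 8.27, 8.285 and 8.427, with a range of 8.111 to 8.427 in all 21 arrays. The part of these arrays in the results was not tested beyond leaving each out in turn, which gave 16 to 21 members called lower at 2 h and 26 to 36 at 4 h against CA plants.

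**Figure D4:**
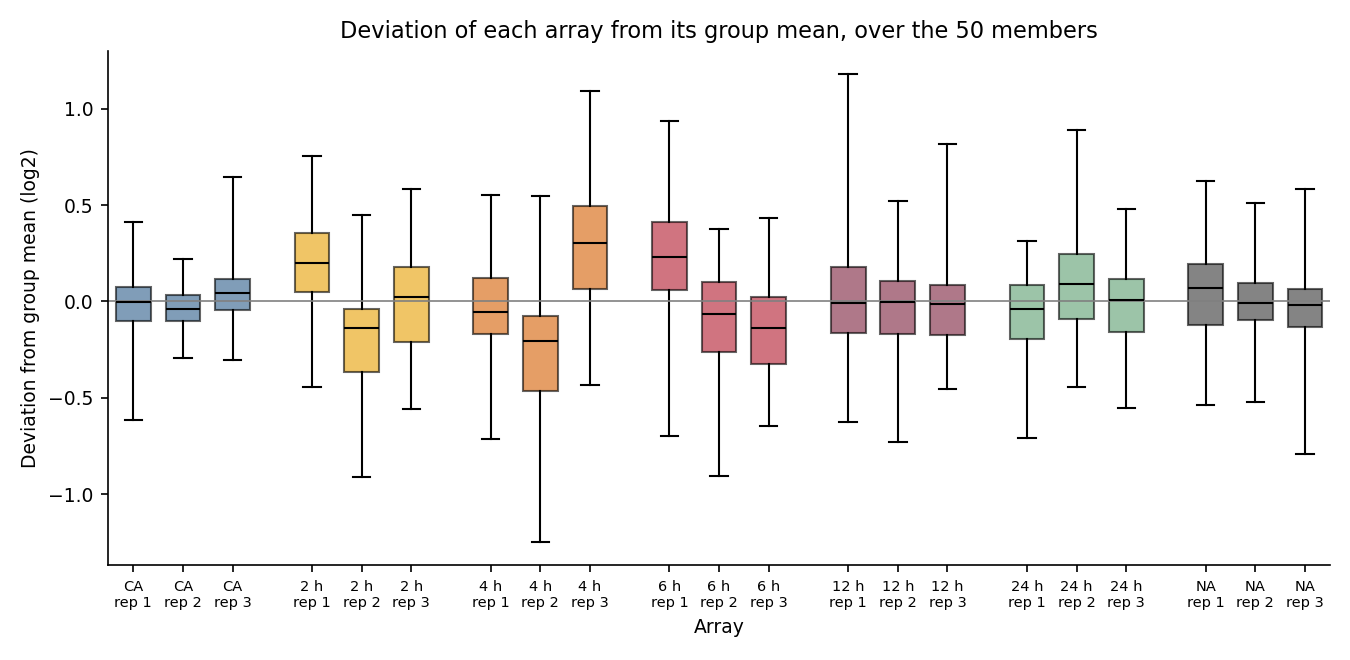
Deviation of each array (horizontal axis, 3 replicates per group) from the mean of its group, in log2 units (vertical axis), over the 50 members; boxes span the quartiles with the median as a line, and whiskers reach the lowest and highest member. The boxes of 4 h replicate 3 (median 0.30) and 6 h replicate 1 (median 0.23) stand above 0 and that of 4 h replicate 2 (median -0.21) below it.

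For comparison, 163 single-gene probe sets also lay at least 1.0 below CA plants at 6 h and 12 h, with all these arrays below the CA arrays. They lay at least 1.0 below CA plants at 24 h and in NA plants too, which is the pattern of a transcript raised by cold. At 6 h and 12 h they changed by medians of -1.53 and -1.89, beside -1.44 and -1.44 in the members, so that their later fall was larger. Their median change was -0.97 at 2 h and -1.33 at 4 h, beside -0.71 and -1.24 in the members. Of this set 44.8% were called lower at 2 h, against 38% of the members, and 86.5% at 4 h, against 64%. As a share of the mean fall over 6 h and 12 h, they had reached a median of 57.2% by 2 h, where the members had reached 52.5%, and of 79.4% by 4 h, where the members had reached 81.5%. Both sets were chosen on the same CA arrays, and the difference between them was not tested.

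Most genes next to the members were not low with them. Of 58 adjacent genes with a single-gene probe set, 6 (10.3%) were called lower at 6 h, where 3.56% of all probe sets were, and 8 (13.8%) at 12 h, where 4.76% were, and their median change was -0.01 and 0.01. AT5G15950 lies next to KIN1, a cold-regulated gene, which changed by -2.62 at 6 h and -3.18 at 12 h, and to AT5G15940, which changed by -1.33 and -1.502. AT3G57020 is flanked by AT3G57010, at -1.83 and -1.57, and AT3G57030, at -0.86 and -1.05. The strand and overlap of neighbouring transcripts were not examined.

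CHIL, which encodes a chalcone isomerase-like protein and was left out by its symbol, met all the other conditions, and lay -1.68, -1.88, -2.53, -1.15 and -0.24 from CA plants after 2, 4, 6, 12 and 24 h. A further 71 probe sets that the platform table does not list met the same conditions and stay unnamed here, as does 1 with several genes. The labelled tissue could be checked with few markers: the leaf gene RCA, the only 1 of 6 leaf markers with a single-gene probe set, read 12.29 to 12.69 over the 21 arrays, the root gene EXPA7 read 4.26 to 5.15, and 0 of 4 flower markers were measured.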

How the data were processed

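RNA of complete rosettes, pooled from 10 plants per sample, was hybridised by the authors to Affymetrix Arabidopsis Gene 1.0 ST arrays, 3 arrays in each of 7 groups. The deposited table holds log2 values, 1 for each probe set and array. The authors computed them with RMA in RobiNA (version not given in the sources used), that is, after correction of the background and quantile normalization across arrays. Such normalization reduces shifts common to most transcripts. Over the probe sets analysed here, which are not the whole table, the array medians ranged from 8.111 to 8.427. The values were used as deposited. Depth does not apply to arrays, and the 3 arrays per group limit the precision.

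From 38408 probe sets 7079 were set apart, those at the head of the table that are numbered in steps of 2 and have no gene in the platform table, which left 31329. Of these 16722 have 1 gene in that table, 759 several and 13848 none. The members and the gene lists were chosen with earlier results of these data known. Symbols are those of the platform table, and loci and neighbouring genes come from RefSeq through the Entrez identifier. Families were taken from the study's supplementary annotation.

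A linear model over all 21 arrays was fitted in limma (version 3.58.1, lmFit followed by eBayes, R 4.3.3; 14 residual and 2.69 prior degrees of freedom) and used for 5 comparisons of the members: 2 h and 4 h each against CA and against NA plants, and 4 h against 2 h. Calls needed a log2 change above 1.0 in size and an adjusted p below 0.05 (Benjamini-Hochberg, over the 31329 probe sets of each comparison). The fit was tested on simulated data. The same fit gave the calls of neighbouring genes at 6 h and 12 h and of list genes at 24 h. Changes of the members in the groups that chose them are given without a test.

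Genes with values of their own were named by a rule: the 12 largest mean falls over 6 h and 12 h, the 5 most negative and 5 most positive changes from 2 h to 4 h, members on a list, the 3 smallest and 3 largest changes at 2 h, and the genes nearest each limit. For a list gene with several probe sets, that with the highest mean was used. Alternatives were the replicate number as a block, the whole table, probe sets with the lowest levels (bottom 25%) left out, cyclic loess, only the 2 groups compared, a trend with robust eBayes, and each array left out in turn. Promoter motifs were not analysed here.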

Additional observations from a re-analysis of the deposited data

Results flagged for a closer look

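AT1G26790, the Dof-type zinc finger gene, was the 1 member whose change from CA plants differed between 4 h and 2 h by limma's test of the difference itself, by -1.93 on the log2 scale (adjusted p = 0.00584). The arrays of the 2 times did not overlap, with 7.04 to 7.52 at 2 h and 4.79 to 6.48 at 4 h. The difference ranged from -2.47 to -1.63 with 1 array left out, and the adjusted p from 1.41e-07 to 0.417 over the 12 alternative settings, the highest with only these 2 groups in the fit.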

How the results depend on the processing

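Of 78 values that alternatives gave for the counts of members, 74 stayed within 1.5 times the count first given, and the other 4 concern the step from 2 h to 4 h. There, 1 member was called, against 2 with the lowest 25% of levels left out, 2 with a trend and robust eBayes and 0 with only the 2 groups compared (limma, where 12 members and 7.86% of all probe sets had an unadjusted p under 0.05), and 1 to 4 with 1 array left out, the 4 without 2 h replicate 2. Leaving out 1 array gave 16 to 21 members called at 2 h and 26 to 36 at 4 h against CA plants, and 17 to 20 and 25 to 37 against NA plants. With cyclic loess the rule found 43 genes, 39 of them among the 50. The labels do not say what the replicate number marks. The study describes 3 independent biological replicates of the experiment and, for metabolite samples, 3 independent experiments, without tying array numbers to them. The replicate number was left out of the main fit, which gave the standard errors printed here. Deviations from the group means were partly shared within a number. Of 63 same-numbered pairs of arrays 41 had r above 0.1, with a median r of 0.135 beside -0.059 for other pairs. Most arrays, 19 of 21, correlated best with those of their own replicate number. With it as a block, 19, 33, 18, 31 and 1 members were called in the 5 comparisons, where 19, 32, 18, 31 and 1 were called without the block, and the calls that differed were those of AT1G36622 at 4 h, gained against CA and NA plants (adjusted p = 0.0448 and 0.0357), and of AT1G06830 at 4 h against NA plants, lost (adjusted p = 0.0527). Of the 72 changes of named genes, 53 kept direction and side of the threshold throughout. Signs turned only in changes that were not called. The largest of these was the step from 2 h to 4 h of -0.39 in HYH, near the members' median step of -0.41. With 1 array left out, the change at 2 h against CA plants ranged from -0.36 to 0.08373 in AT2G20870 and from -0.17 to 0.31 in AT4G20860. The step from 2 h to 4 h ranged from -0.52 to 0.14 in AT5G15950, -0.82 to 0.0059 in HYH, -0.27 to 0.04438 in AT3G56890, -0.1467 to 0.01476 in AT1G18900, -0.28 to 0.21 in bHLH34, which gave 0.01789 with cyclic loess, and -0.27 to 0.36 in AT3G09590. The cause was not tested. Precision is limited by 3 arrays per group.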
